A study of Rattus norvegicus with 12 samples.

Results

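The genes described here are 9 members of the NF-kB pathway and its target genes in cultured rat retinal ganglion cells (RGCs), which send the axons of the optic nerve to the brain. They are the subunit genes Nfkb1, Nfkb2, Rela and Relb, the inhibitor genes Nfkbia and Tnfaip3, the TNF-induced gene Tnfaip2, and the adhesion molecule genes Icam1 and Vcam1. All probe sets whose single annotated gene symbol was one of these names were taken, which gave 12 of the 31042 probe sets on the Affymetrix Rat Genome 230 2.0 array. Values played no part in that rule, but the genes themselves were chosen with earlier results of these data known.

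The RGCs came from Sprague-Dawley pups at postnatal day 4 to 6 and were isolated by panning on an antibody to the surface protein Thy-1.1. All groups shared 7 days of culture in serum-free DMEM with CNTF (10 ng/mL), forskolin (5 ng/mL) and BDNF (50 ng/mL), and then a night without the neurotrophic factors. For the next 24 h the cells received 100 nM endothelin-1 (ET-1), 100 nM endothelin-2 (ET-2), 100 nM endothelin-3 (ET-3) or no peptide. The group without peptide is called untreated in the titles and vehicle-treated in the descriptions of its samples. Each of the 4 groups had 3 arrays with biological replicate numbers 1 to 3, and the comparison asks which of these genes differed after each endothelin within a replicate number. The labels do not say whether arrays that share a number came from the same isolation of cells, so the p-values describe only these arrays. In the main fit they rest on the spread left after differences between replicate numbers are removed.

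NF-kB transcription factors are dimers of Rel-family proteins that inhibitor proteins of the IkB family hold in the cytoplasm. Signals from receptors for TNF, interleukin-1 and other ligands activate the IkB kinase complex, the inhibitor is degraded, and the dimer enters the nucleus and binds kappaB sites. The targets include genes of the pathway's own inhibitors and subunits, cytokines, and the adhesion molecules to which leukocytes bind. In retina and optic nerve the pathway is mostly known from glia and vessel endothelium, where these adhesion molecules take part in leukocyte entry. A messenger RNA level does not report the location or activity of the proteins.

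The arrays had median signals from 136 to 181 and were scaled alike. Values followed the replicate number more than the treatment. Over all tested probe sets the replicate number took a median of 68.7% of the variance and the treatment groups 10.4%. The deviations from group means of all 18 pairs of arrays with the same number correlated at r between 0.684 and 0.912 across probe sets. The 4 arrays of replicate number 1 stood apart in the sum of a list of fibroblast and pericyte markers. The summed signal of all 13 such markers was 53376 to 61566 under number 1, 15385 to 19848 under number 2 and 13040 to 16656 under number 3. The markers Rgs5, Cspg4 and Kcnj8 of that list added little, as they did not exceed 56.9, 131 and 55.5 on any array. By treatment the same sum overlapped in all groups, at 16656 to 58113 with ET-1, 14462 to 61566 with ET-2, 15369 to 57230 with ET-3 and 13040 to 53376 in untreated cells. Those ranges span the replicate numbers. With ET-1, ET-2, ET-3 and no peptide in turn the sum was 58113, 61566, 57230 and 53376 under number 1. Under number 2 it was 19848, 15385, 18704 and 16181, and under number 3 it was 16656, 14462, 15369 and 13040. Within a number the sum was thus above untreated on each endothelin array except that of ET-2 under number 2. A sum of signals weighs bright markers most, among them Tagln at 2708 to 8217, which was called higher with each endothelin. The median change of the 10 tested markers of this list was 0.19 log2 units with ET-1, -0.06 with ET-2 and 0.0007 with ET-3. RGC markers were present on all arrays, with sums of 95666 to 100142 under number 1, 113590 to 125320 under number 2 and 136817 to 148975 under number 3 for the 15 of 18 markers with a probe set. By treatment the sums overlapped, at 96351 to 138508 with ET-1, 100142 to 141038 with ET-2 and 96069 to 148975 with ET-3, against 95666 to 136817 in untreated cells. Of the 15, Eomes fell with ET-1 by 0.39 (limma adjusted p = 0.0419) and in the mean of the endothelins by 0.32 (adjusted p = 0.0224), and no other was called. In such bulk samples fewer cells of a type and less RNA per cell cannot be told apart.

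Icam1 and Tnfaip2 rose with each of the 3 endothelins, by 1.62- to 1.82-fold and 1.60- to 1.78-fold, and Nfkb2 rose with ET-3 by 1.80-fold. No member fell. The other subunits, both inhibitors and Vcam1 did not pass the test with any endothelin. The test was limma on log2 MAS5 signal with the replicate number as a block, two-sided, with Benjamini-Hochberg adjustment over all 15521 probe sets tested and a threshold of 0.05. It called 2 of the 9 tested member probe sets with ET-1, 2 with ET-2 and 3 with ET-3, all higher, against 1.51%, 1.28% and 2.13% of all tested probe sets called higher. In the mean of the 3 endothelins over untreated it called 3, all higher, against 3.54% of all tested. The other 3 member probe sets, all for Tnfaip2, were too dim to be tested. The filter on low signal used the mean over all arrays, with a cut at about 147.5. Untreated means were below it, at 147.3 for the tested Tnfaip2 probe set and 122 for Nfkb2. With each endothelin the means were above it, at 235 to 264 and 183 to 231. Calls of both genes thus rest on probe sets that passed the filter through their endothelin arrays. With no filter the Tnfaip2 calls held (limma adjusted p from 0.0121 to 0.0470) and that of Nfkb2 with ET-3 did not (0.0588). The median change of the 9 genes was 0.32 log2 units with ET-1, 0.24 with ET-2 and 0.33 with ET-3, while the medians over all tested probe sets were -0.03, -0.02 and -0.03. Of the 9 genes, 4 were higher under all 3 replicate numbers with ET-1, 3 with ET-2, 6 with ET-3 and 3 with all of them, against 14.4%, 14.1%, 14.6% and 5.59% of all tested probe sets. The comparisons share their untreated arrays and are not independent of each other. Without the replicate block limma called 0 member probe sets and 0.00% of all tested in each of these comparisons. At an unadjusted p under 0.05 that fit gave 1 in each, Tnfaip2, and its lowest adjusted p was 0.583.

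**Figure D1:**
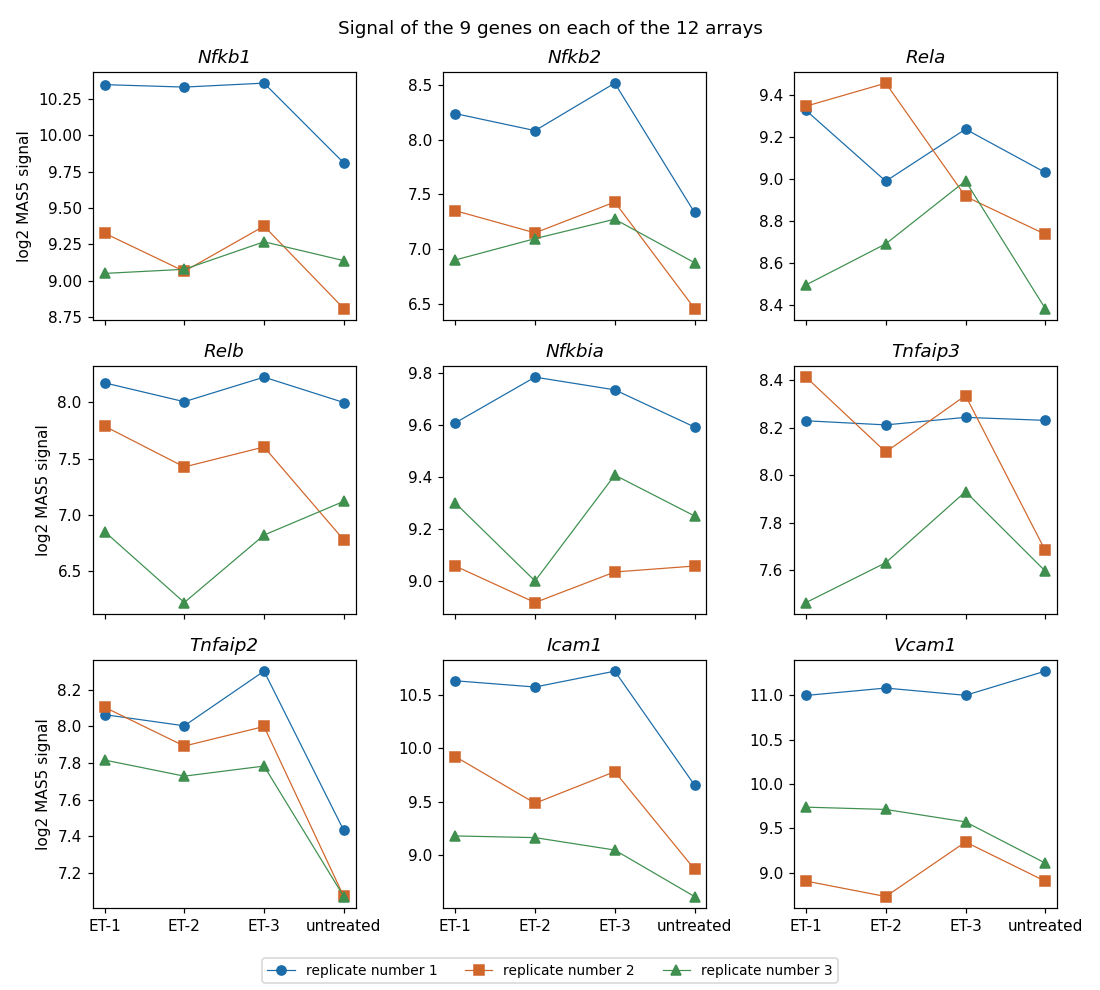
Log2 MAS5 signal of the 9 genes (1 panel each, the tested probe set of the gene) on the 12 arrays, with ET-1, ET-2 and ET-3 to the left of untreated. Colours and symbols are replicate numbers, and lines join arrays of the same number. Icam1 and Tnfaip2 lie above the untreated array under all 3 numbers with each endothelin, and the levels of Vcam1 and Nfkb1 are set apart by number 1.

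Among the subunits, Nfkb2 encodes the precursor that is processed into the DNA-binding partner of RelB in the noncanonical branch of the pathway. Its probe set 1375989_a_at had signals of 302, 163 and 119.5 under replicate numbers 1, 2 and 3 with ET-1, 271, 142 and 137 with ET-2, and 366, 172 and 155 with ET-3, against 161, 87.9 and 117 in untreated cells. Each endothelin array was above the untreated array of its own number, but the groups overlapped. The log2 change over untreated was 0.85 ± 0.18 (SE, n = 3 each) with ET-3 (limma adjusted p = 0.0263), and 0.61 with ET-1 (adjusted p = 0.126) and 0.55 with ET-2 (adjusted p = 0.159) did not pass. The mean over the endothelins was 0.67 ± 0.15 (adjusted p = 0.0212). That call rested on single replicate numbers: without number 1 the mean change was 0.53 (adjusted p = 0.286), and without number 2 the adjusted p was 0.193. Without the untreated array of number 1 or of number 2 alone it was 0.147 and 0.105. The call with ET-3 was lost without any of the 3 ET-3 arrays or without either of those untreated arrays (adjusted p from 0.0509 to 0.155), and without number 1 (0.337) or number 2 (0.209). Without the untreated array of number 3, Nfkb2 passed with ET-1 (0.84, adjusted p = 0.0145) and ET-2 (0.78, adjusted p = 0.0275) too. Of the 15 fits that left out an array or a number, it passed in only 2 with ET-1 and 1 with ET-2.

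Nfkb1 encodes the precursor of the subunit that pairs with RelA in the canonical dimer. Its probe set 1370968_at read 1302, 643 and 531 with ET-1, 1287, 536 and 541 with ET-2, and 1311, 664 and 617 with ET-3, against 897, 449 and 564 in untreated cells. Under numbers 1 and 2 all endothelin arrays were above untreated, and under number 3 those of ET-1 and ET-2 were below it. The changes of 0.32 with ET-1 (limma adjusted p = 0.208), 0.24 with ET-2 (adjusted p = 0.331) and 0.41 with ET-3 (adjusted p = 0.0818) did not pass the test. Without number 3 the changes were 0.53 with ET-1 (adjusted p = 0.0491) and 0.56 with ET-3 (adjusted p = 0.0372). Without the untreated array of number 3 alone they were 0.49 (adjusted p = 0.0171) and 0.58 (adjusted p = 0.00638). Other omissions lowered them. Without number 1 they were 0.21 (limma adjusted p = 0.655) and 0.35 (0.416), and without number 2 they were 0.22 (0.622) and 0.34 (0.349). Without the untreated array of number 1 they were 0.22 (0.544) and 0.31 (0.273). Of the 15 fits that left out an array or a number, Nfkb1 passed in 2 with ET-1, 0 with ET-2 and 2 with ET-3.

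Rela encodes the main transactivating subunit. Its probe set 1372853_at read 642, 651 and 361 with ET-1, 508, 703 and 414 with ET-2, and 604, 483 and 509 with ET-3, against 523, 427 and 334 in untreated cells. Each endothelin array except that of ET-2 under number 1 was above the untreated array of its number. The mean change of 0.33 (95% interval 0.04 to 0.63) had a limma adjusted p of 0.176. Relb encodes the noncanonical transactivating subunit. Its probe set 1376160_at read 289, 221 and 116 with ET-1, 257, 172 and 74.6 with ET-2, and 299, 194 and 113 with ET-3, against 256, 109.7 and 139 in untreated cells. Its endothelin arrays were above untreated under numbers 1 and 2 and below it under number 3. The mean change was 0.16 with an interval of -0.26 to 0.57 (limma adjusted p = 0.673).

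The inhibitor genes did not pass the test. Nfkbia encodes IkB-alpha, the inhibitor that holds the canonical dimer and is itself a rapid NF-kB target. Its probe set 1389538_at read 781, 533 and 630.3 with ET-1, 882, 483 and 512 with ET-2, and 853, 524 and 679 with ET-3, against 772, 533 and 609 in untreated cells. The endothelin arrays were above untreated under number 1, level with or below it under number 2 and on both sides of it under number 3, and the mean change was 0.02 with a 95% interval of -0.16 to 0.19 (limma adjusted p = 0.934). Tnfaip3 encodes A20, a ubiquitin-editing enzyme that ends signalling from the TNF receptor. Its probe set 1385641_at read 300.2, 341 and 176 with ET-1, 297, 274 and 198 with ET-2, and 303, 323 and 244 with ET-3, against 301, 205 and 193 in untreated cells. The arrays of number 1 differed little and those of number 2 were all above untreated. The mean change was 0.23, with an interval of -0.06 to 0.51 (limma adjusted p = 0.341).

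Tnfaip2 was first described as a gene induced by TNF in endothelial cells. Its probe set 1388773_at read 268, 275 and 225 with ET-1, 256, 238 and 212 with ET-2, and 315, 256 and 220.3 with ET-3, against 173, 135 and 135 in untreated cells. All 9 endothelin arrays were above all 3 untreated arrays, a separation shown by 0.677% of all tested probe sets in this direction and by no other member. For ET-1, ET-2 and ET-3 alone the share of such probe sets was 2.25%, 2.13% and 2.54%, and again no other member was among them. The log2 change over untreated was 0.80 ± 0.13 (SE, n = 3 each) with ET-1 (limma adjusted p = 0.00714), 0.68 with ET-2 (adjusted p = 0.0240) and 0.84 with ET-3 (adjusted p = 0.00528). Without number 1 the mean over the endothelins was 0.82 (adjusted p = 0.0238), against 0.77 (adjusted p = 0.00155) with all arrays. That mean passed with any 1 array or any 1 number left out. The changes with a single endothelin did not pass without number 1 or without number 2 (adjusted p from 0.0609 to 0.192), nor that with ET-2 without number 3 (0.114). Loss of ET-1 array 2 (adjusted p = 0.0655), of ET-3 array 1 (0.0534), or of any ET-2 array or untreated array 2 for ET-2 (0.0681 to 0.117), also ended the call with that endothelin. The 3 dim probe sets of the gene, 1381376_at, 1375806_at and 1375505_at, read 4.82 to 112 over all arrays. Their mean changes were 0.31, 0.52 and 0.07 with 95% intervals that all included 0. With ET-3 alone 1381376_at had a change of 0.72 with an interval of 0.09 to 1.35, and with all probe sets tested its limma adjusted p was 0.317.

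Icam1 encodes ICAM-1, the surface ligand of the leukocyte integrins LFA-1 and Mac-1. Its probe set 1387202_at read 1583, 969.6 and 580.5 with ET-1, 1520.2, 717 and 574 with ET-2, and 1685, 879 and 529.8 with ET-3, against 806, 468 and 392 in untreated cells. The signal was highest under number 1 and lowest under number 3 in each group, so that the groups overlapped. Within a number the fold over untreated was 1.96, 2.07 and 1.48 with ET-1, 1.89, 1.53 and 1.46 with ET-2, and 2.09, 1.88 and 1.35 with ET-3. All 9 of these within-number folds were above 1. The log2 change was 0.86 ± 0.11 (SE, n = 3 each) with ET-1 (limma adjusted p = 0.00291), 0.69 with ET-2 (adjusted p = 0.0134) and 0.80 with ET-3 (adjusted p = 0.00364). The mean over the endothelins was 0.79 (adjusted p = 0.0007), and without number 1 it was 0.69 (adjusted p = 0.0174). That mean, too, passed with any 1 array or number left out. No change with a single endothelin passed without number 2 (adjusted p from 0.0791 to 0.0854). Those with ET-2 and ET-3 did not pass without number 1 (adjusted p = 0.165 and 0.0746), nor that with ET-2 without ET-2 array 1 (0.104) or 3 (0.0874).

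Vcam1 encodes VCAM-1, the ligand of the integrin VLA-4. Its probe set 1368474_at read 2048, 480.1 and 855 with ET-1, 2169.5, 425 and 840.2 with ET-2, and 2049.5, 652 and 762 with ET-3, against 2476, 479.7 and 553 in untreated cells. Under number 1 all endothelin arrays were below untreated, at 0.83- to 0.88-fold, and under number 3 all were above it, at 1.38- to 1.55-fold. The log2 change was 0.12 with ET-1 (limma adjusted p = 0.781), 0.08 with ET-2 (adjusted p = 0.860) and 0.21 with ET-3 (adjusted p = 0.537), and the mean change of 0.14 had an interval of -0.16 to 0.43. Levels differed far more by replicate number, with 2048 to 2476 under number 1, 425 to 652 under number 2 and 553 to 855 under number 3.

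**Figure D2:**
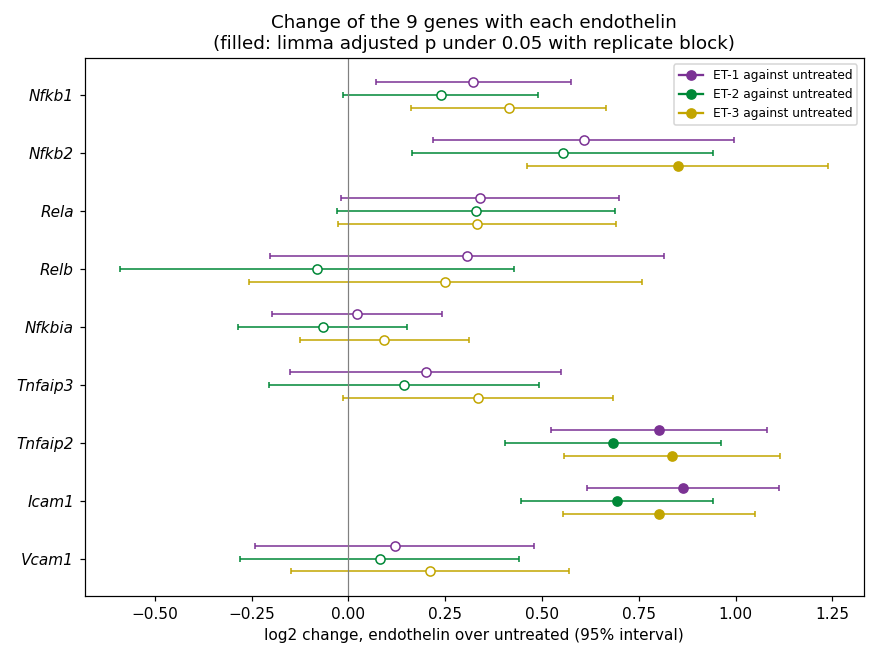
Log2 change over untreated of the 9 genes with ET-1, ET-2 and ET-3 (limma estimate with the replicate block, bars 95% intervals). Filled points have an adjusted p under 0.05 over all tested probe sets: Icam1 and Tnfaip2 with each endothelin, and Nfkb2 with ET-3. The points of Nfkbia lie between -0.07 and 0.09.

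Because most of these genes are known kappaB targets, the sequence around their starts is shown for the members with a kappaB-like match. RefSeq windows of build GRCr8, from 250 bases before to 50 after the annotated start, were found for 8 of the 9 members. Of the 250 bases before that start, 0 lay outside the annotated gene for Nfkb1 and Nfkb2, 15 for Nfkbia, 93 for Icam1, 236 for Tnfaip3 and 250 for Vcam1. Among these genes, the start used thus lies inside the annotated gene for all but Vcam1. The 10-letter kappaB consensus, searched on both strands, matched in 5 of the 8 and in 7.51% of all 33469 promoter windows. The symmetric letters GGAANTTCC, picked after the sequences were read, matched in 3 of the 8 and in 0.872% of all windows, and in Nfkb1 and Nfkbia this match overlaps the consensus match. Capitals mark the matched letters, lines run 5′ to 3′ on the gene's strand, and positions count from the start, with no base 0. In Icam1 (chr8:27829595-27829687, plus strand, bases -250 to -158) GGAANTTCC matched at -218 to -210. In Vcam1 (chr2:206742784-206743033, minus strand, the 250 bases before the start) the consensus matched at -93 to -84.
Icam1: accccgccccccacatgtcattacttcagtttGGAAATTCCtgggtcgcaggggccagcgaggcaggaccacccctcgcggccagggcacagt
Vcam1: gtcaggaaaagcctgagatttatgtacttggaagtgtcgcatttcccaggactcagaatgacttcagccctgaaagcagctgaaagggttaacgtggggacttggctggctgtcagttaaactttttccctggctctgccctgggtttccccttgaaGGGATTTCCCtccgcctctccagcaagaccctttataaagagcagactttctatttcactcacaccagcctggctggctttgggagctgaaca

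The windows of 4 further members held the consensus, shown as 30 bases around it. The match lay at 4 to 13 in Nfkb1 (chr2:226805440-226805469, minus strand), -20 to -11 in Nfkb2 (chr1:255108344-255108373, plus strand) and -31 to -22 in Nfkbia (chr6:78597084-78597113, minus strand). In Tnfaip3 (chr1:15544021-15544050, minus strand) there were neighbouring matches at -67 to -58 and -55 to -46, and a further match at -170 to -161 is not printed.
Nfkb1: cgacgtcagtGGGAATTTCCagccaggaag
Nfkb2: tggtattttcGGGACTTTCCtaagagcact
Nfkbia: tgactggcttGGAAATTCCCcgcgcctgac
Tnfaip3: gactGGAAAGTCCCtcGGAAATCCCCctgt

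The windows of Rela and Tnfaip2 held neither set of letters. A match describes letters in these windows and says nothing of binding in these cells.

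The endothelins were then set against each other at the same dose and time, in 27 comparisons of the 9 tested probe sets. None passed the test, the lowest limma adjusted p was 0.999, and 0.00% of all tested probe sets were called in any pair. For Icam1 the difference was -0.06 log2 units (95% interval -0.31 to 0.19) for ET-3 over ET-1, 0.11 (-0.14 to 0.36) for ET-3 over ET-2 and -0.17 (-0.42 to 0.08) for ET-2 over ET-1. For Tnfaip2 the intervals were -0.25 to 0.31, -0.13 to 0.43 and -0.40 to 0.16 in the same order. The intervals were wider for Nfkb2, where ET-3 over ET-2 was 0.30 (-0.09 to 0.69), and for Relb, where ET-2 over ET-1 was -0.39 (-0.90 to 0.12). Differences of these sizes between the peptides are not shown to be absent.

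The members differed in how much of their variation followed the replicate number. Replicate number took 94.9% of the variance over the 12 arrays for Vcam1, 87.6% for Nfkbia and 87.2% for Nfkb1, against a median of 68.7% over all tested probe sets. For Tnfaip2 it took 14.5%, and the treatment groups took 81.8%. For Icam1 the number took 71.2%, the groups 25.8% and the residual 2.95%, against a median residual of 16.8%. Vcam1 and the fibroblast and pericyte sum were both highest under number 1. The part that other cells play in these levels was not tested.

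Markers of other cell types were set beside these values. Of 14 measured endothelial markers 11 were below the filter on low signal. Among these, Pecam1, Cldn5 and Vwf did not exceed 48.9, 52.1 and 50.0 on any array. Of the other untested markers Emcn reached 269, Flt1 208 and Egfl7 180 on at least 1 array. The 3 that were tested read 136 to 546 for Kdr, 188 to 465 for Eng and 73.7 to 320 for Esam over all arrays. Kdr, a VEGF receptor, fell by 0.58 in the mean of the endothelins (limma adjusted p = 0.0304). Eng at 0.45 (adjusted p = 0.108) and Esam at 0.46 (adjusted p = 0.304) did not pass, and the median of the 3 was 0.45. The endothelial sum was 976 to 1421 with ET-1, 1194 to 1432 with ET-2 and 1158 to 1562 with ET-3, against 1151 to 1368 in untreated cells. The sum of 10 microglia markers overlapped in all groups, at 1882 to 3370 with ET-1, 1759.9 to 3193 with ET-2 and 1782 to 4086 with ET-3, against 2139 to 2908 in untreated cells. The sum of 8 astrocyte and Mueller glia markers did not overlap, at 12244 to 15307 with ET-1, 11840.4 to 15589 with ET-2 and 12566 to 15428 with ET-3, against 8729 to 9762 in untreated cells. Vim (vimentin), an intermediate filament gene that fibroblasts also express, was the only gene called among the 3 of these 8 that were tested, with a mean change of 0.67 (limma adjusted p = 4.02e-05). It made up 82.3% to 87.0% of the sum with ET-1, 81.9% to 87.7% with ET-2 and 83.0% to 85.9% with ET-3, against 76.9% to 79.5% in untreated cells. The sum of the other 7 markers overlapped, at 1855 to 2358 with ET-1, 1901 to 2148 with ET-2 and 1906 to 2262 with ET-3, against 2004 to 2090.01 in untreated cells. Slc1a3 at 0.08 (limma adjusted p = 0.787) and Glul at -0.02 (adjusted p = 0.930) did not pass. Of the 10 tested fibroblast and pericyte markers, Acta2, Tagln and Pdgfrb rose in the mean of the endothelins, by 0.55, 0.72 and 1.02 log2 units, and Col3a1 fell by 0.27. The part of these cells in the rise of Icam1 and Tnfaip2 was not tested.

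**Figure D3:**
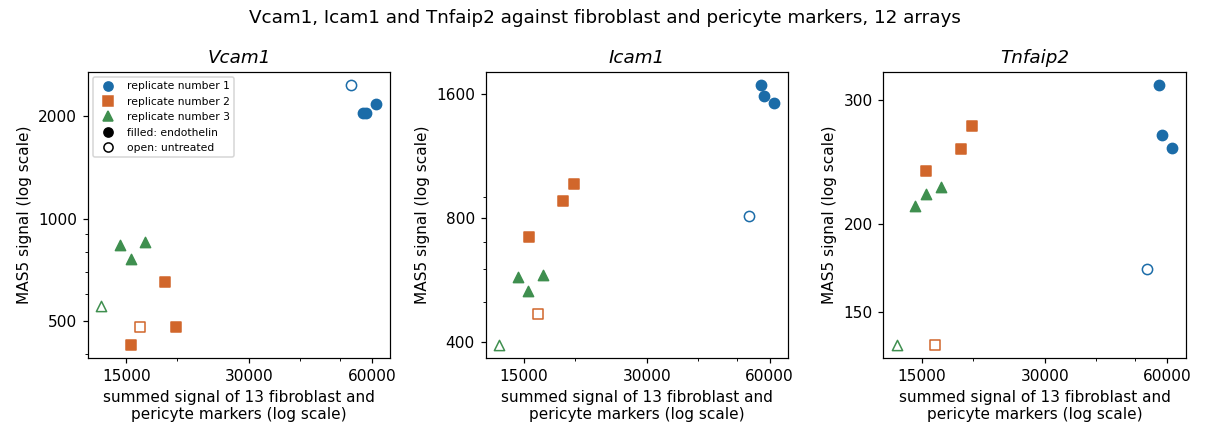
MAS5 signal (log scale) of Vcam1, Icam1 and Tnfaip2 against the summed signal of 13 fibroblast and pericyte markers (log scale) on the 12 arrays, with filled symbols for endothelin arrays, open symbols for untreated arrays, and colour and shape for the replicate number. Vcam1 is 2048 to 2476 on the number 1 arrays, where the sum is highest. The untreated Icam1 and Tnfaip2 signals of number 1 lie below the endothelin signals of the same number. The untreated marker sum of number 1 also lies below the endothelin sums of that number, at 53376 against 57230 to 61566. The median change of the 10 tested markers in the mean of the endothelins was 0.06 log2 units.

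Other genes of the pathway were read from lists of 82 genes by role, of which 69 had a probe set and 41 were tested. Of the 41, 3 rose and 0 fell with ET-1, 2 rose and 1 fell with ET-2, and 3 rose and 0 fell with ET-3, which is 7.32% in each case against 1.73%, 1.60% and 2.64% of all tested probe sets called in either direction. In the mean of the endothelins 6 rose and 0 fell, or 14.6% against 4.88% of all tested, and the median change of the 41 genes was 0.06. Without the replicate block none passed. By the brightest probe set of each gene, Il1r1 had the largest change among the 41 tested genes in each comparison. A second, dimmer probe set of Csf1 changed by 0.74 with ET-2 (limma adjusted p = 0.0644), against 0.72 for Il1r1. Il1r1, the signalling receptor of interleukin-1, read 4012, 781 and 632 with ET-1, 3979, 671 and 606 with ET-2, and 3694, 762 and 557 with ET-3, against 1912, 437 and 434 in untreated cells. As with Icam1, every endothelin array was above the untreated array of its number and number 1 was highest. The changes were 0.82 with ET-1 (limma adjusted p = 0.00291), 0.72 with ET-2 (adjusted p = 0.00891) and 0.70 with ET-3 (adjusted p = 0.00528). In the mean of the endothelins the change passed with any 1 array or number left out. Without number 2 no single-endothelin change passed (adjusted p from 0.0751 to 0.0996), and without number 1 those with ET-2 and ET-3 did not (0.143 and 0.0853). The ET-2 call was also lost without ET-2 array 1 (0.0716) or 3 (0.0527). Its other 2 probe sets read 55.3 or less on all arrays and were not tested.

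Tnfrsf12a, the receptor of the TNF-family ligand TWEAK, rose by 0.54 with ET-1 (limma adjusted p = 0.0256) and 0.50 with ET-3 (adjusted p = 0.0319), and its change of 0.47 with ET-2 had an adjusted p of 0.0557. Its mean change of 0.50 (limma adjusted p = 0.0071) did not pass without number 1 (0.0513) or number 2 (0.0620). The single-endothelin calls were lost without either number (adjusted p from 0.0858 to 0.226). The ET-1 call was also lost without any ET-1 array (0.0673 to 0.143), and the ET-3 call without ET-3 array 1 (0.184) or 2 (0.117), ET-2 array 3 (0.0547) or untreated array 1 (0.0674). Tnfrsf1a, the main TNF receptor, did not pass the test, at 0.21 with ET-1, 0.16 with ET-2 and 0.21 with ET-3. Without the untreated array of number 3 its changes of 0.39, 0.34 and 0.39 did (limma adjusted p = 0.0142, 0.0370 and 0.0135). With each endothelin that was the only 1 of the 15 fits that left out an array or a number in which it passed. In other such fits its changes were as low as 0.09, 0.02 and 0.09. Among 3 tested integrin genes of the adhesion receptors, Itgb1, which encodes the beta chain of VLA-4, rose by 0.47 with ET-1, 0.39 with ET-2 and 0.43 with ET-3, and its mean change passed with any 1 array or number left out. The change with ET-1 passed in 13, that with ET-2 in 7 and that with ET-3 in 10 of the 15 fits that left out an array or a number. Without numbers 1, 2 and 3 in turn the limma adjusted p of the ET-2 change was 0.165, 0.125 and 0.110, and that of the ET-3 change 0.0952, 0.0880 and 0.0554. With ET-1 the call was lost without number 2 (0.135) or ET-1 array 2 (0.0851), with ET-2 also without any ET-2 array (0.0688 to 0.199), ET-1 array 3 (0.0551) or untreated array 1 (0.0704), and with ET-3 also without ET-3 array 1 (0.105) or 2 (0.0541). A second Itgb1 probe set rose with ET-1 and ET-3 (0.59 and 0.63), and its change of 0.43 with ET-2 had a limma adjusted p of 0.0750. Itga4, the gene of the alpha chain of VLA-4, was not analysed here, so these values cover only the beta chain.

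The genes between receptor and subunit showed few calls. Of 4 tested kinase genes none passed in any comparison. Ikbkb, the catalytic IkB kinase of the canonical branch, changed by 0.39 log2 units with ET-1, 0.11 with ET-2 and -0.01 with ET-3, and Chuk, the other catalytic subunit, by 0.11, -0.12 and 0.06. Of 11 adaptor genes, Birc2, a ubiquitin ligase of the TNF receptor complex, fell by 0.36 with ET-2 (limma adjusted p = 0.0441), with a mean change of -0.23 (adjusted p = 0.0589). The ET-2 call was lost in 14 of the 15 fits that left out an array or a number. Neither of the 2 tested IkB genes passed, and Nfkbib changed by 0.24, 0.10 and -0.09. Among 4 feedback regulators, Tnip1, which works with A20, rose in the mean of the endothelins by 0.35 (limma adjusted p = 0.0269). Of 7 other target genes, the mitochondrial superoxide dismutase gene Sod2 and the adhesion gene Ninj1 rose in that mean by 0.45 and 0.34. The probe sets of Csf1, a colony-stimulating factor gene, disagreed: the brighter of 2 tested ones changed by 0.04 (limma adjusted p = 0.893), and the dimmer one rose by 0.62 (adjusted p = 0.0304). The calls of Tnip1, Sod2 and Ninj1 were all lost without number 1 (adjusted p = 0.276, 0.129 and 0.203), without number 2 and without the untreated array of number 1 alone (0.167, 0.125 and 0.122). Of the 15 fits that left out an array or a number, Tnip1 passed in 8, Sod2 in 6 and Ninj1 in 9. The ligand gene Il33 was not tested, because its probe sets fell below the filter. Its brighter one read 511, 142 and 91.8 with ET-1, 472, 39.9 and 85.1 with ET-2, and 555, 83.9 and 81.9 with ET-3, against 138, 31.7 and 62.5 in untreated cells. On both its probe sets each endothelin array was above the untreated array of its number. The ligand genes Il1b and Tnfsf12 and the 3 other TNF-induced genes did not pass. All 6 other adhesion molecule genes were below the filter, among them Sele (E-selectin) at 1.18 to 38.0. Rel, Ikbkg and the endothelin receptor genes Ednra and Ednrb were not analysed here.

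**Figure D4:**
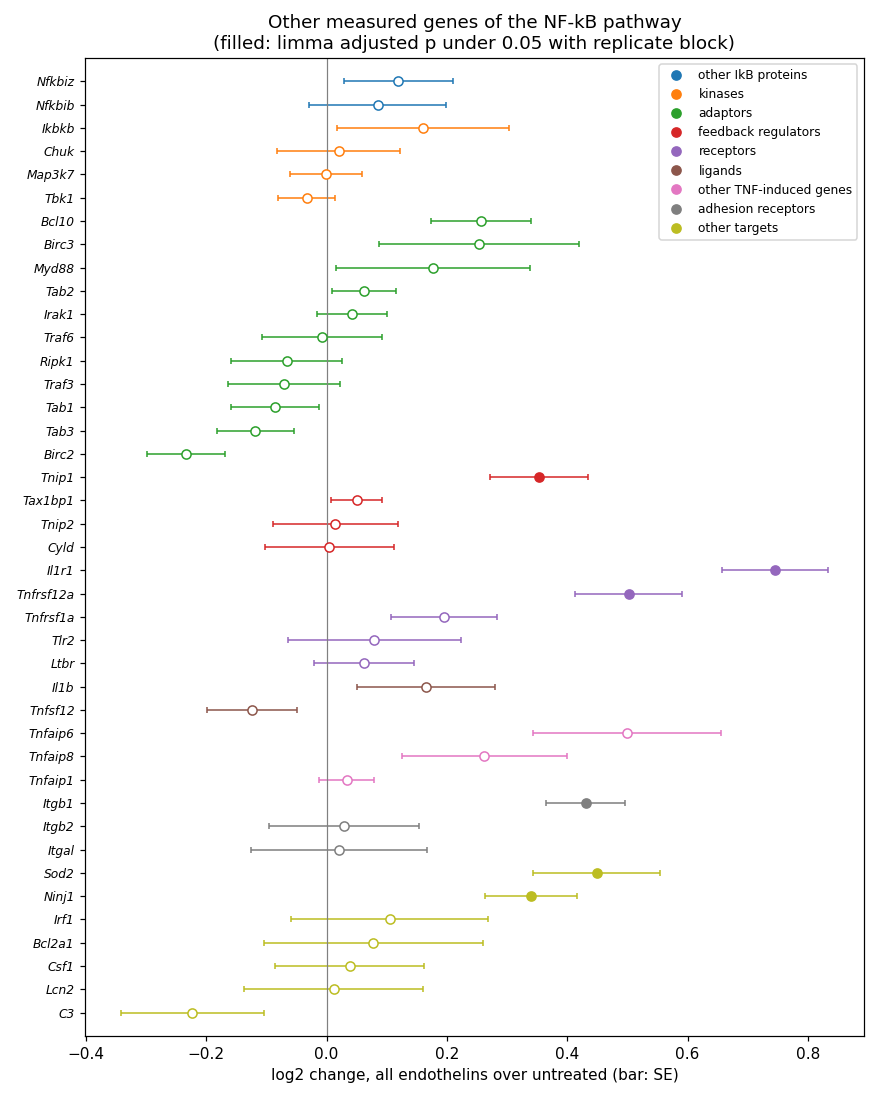
Log2 change of the 41 tested other pathway genes in the mean of the 3 endothelins over untreated (limma with the replicate block, bars SE), grouped by role from top to bottom. The 6 filled points have an adjusted p under 0.05: Tnip1, Il1r1, Tnfrsf12a, Itgb1, Sod2 and Ninj1.

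The genes most like Icam1 over the 12 arrays, by Pearson's r of log2 signal among 9425 genes, were Serpinb9 (0.990), Itgb1 (0.988), Rai14 (0.985), Ptgs2 (0.984) and Cnn3 (0.984). After the mean of each replicate number was subtracted they were Uhrf1 (0.990), Arpc1b (0.988), Lims1 (0.988), Iqgap1 (0.987) and Gja1 (0.986), so that no gene stood in both sets. For Tnfaip2 they were Myof (0.945), Cavin3, Vim, Msn and Cav1 before the subtraction, and Myof (0.971), Cryab, Acta2, Uhrf1 and Ltbp2 after it. For Nfkb2 the closest were Hdac1 (0.977), Ccl20, Baz1a, Rcc2 and Runx1, and after the subtraction Olfml2b (0.975), Litaf, Rcc2, Arpc2 and Spp1. For Vcam1 they were Dpt (0.991), Sulf2, Rab38, Fcgrt and Lgals3bp, and after the subtraction Gigyf2 (0.900), Dpt, Abcb8, Zfyve16 and Prox1. These correlations describe arrays that share replicate numbers and treatments, and the arrays are not independent points.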

How the data were processed

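RNA of 12 samples was hybridised to Affymetrix arrays. The authors deposited 1 intensity per probe set and array on a linear scale, made with MAS5 per the submitters' processing notes. No version of it is given in the sources used here. The mean of each array after trimming 2% at each end was 496.7 to 498.3. Gene symbols came from the platform annotation: 20826 had 1 symbol, 436 several and 9780 none. All 9 members were found by Entrez ID in the RefSeq table.

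The deposited signal was taken as log2 with no pseudocount. The 15521 probe sets (9425 genes) with a mean at or above the median, a signal of about 147.5, were tested in limma 3.58.1 (R 4.3.3): lmFit with 4 groups and the replicate number as a block over all 12 arrays, eBayes with trend, two-sided, Benjamini-Hochberg adjustment, threshold 0.05. Intervals are 95% intervals of that fit. The script was tested on simulated data. A gene is represented by its brightest probe set. Detection calls were not used. The number of arrays limits the precision.

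The members, the lists and the blocked fit were chosen with earlier results of these data known, among them that the fit without the block calls nothing. The replicate numbers count as pairs because same-numbered arrays deviated together in all 18 pairs (r 0.684 to 0.912, all over 0.1). The block lowered the median residual SD to 0.127, against 0.25 without it, and the residual degrees of freedom to 6, against 8.

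Named were all member probe sets, the listed pathway genes called with any endothelin or in their mean, Rel, Chuk, Ikbkb, Ikbkg, Nfkbib, Tnfrsf1a, Il1r1, Ednra and Ednrb whatever their values, and the 5 genes most like each of 4 members. Sele, Il1b, Tnfsf12, Il33, and the second Itgb1 and Csf1 probe sets, were named after their values were seen, as were the cell type markers. Alternatives were no block, other scaling, filters, a pseudocount of 50, no trend, only the groups compared, and arrays left out.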

Additional observations from a re-analysis of the deposited data

How the results depend on the processing

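In 23 alternatives, 15 of which left out arrays, none of the 25 called changes of members and named pathway genes turned its direction. In many of these the direction could not turn. No block, other filters, no trend and only the groups compared leave the estimate as it is. Leaving out an array of another endothelin likewise leaves a change with a single endothelin as it is. Without the replicate block 0 members and 0 other pathway genes were called in each comparison with untreated, against 2, 2, 3 and 3 members and 3, 3, 3 and 6 other genes with it for ET-1, ET-2, ET-3 and their mean. The adjusted p of Icam1 in the mean was then 0.999994, and that of Tnfaip2 0.583. A stricter filter left 1 member called in each of these comparisons, because Tnfaip2 and Nfkb2 were not tested there. With only the groups compared in the fit, 1 member was called with ET-1, 1 with ET-2 and 0 with ET-3, and 0 other genes with ET-2 and 0 with ET-3. With no intensity trend 1 member was called with ET-2, and 1, 1, 1 and 3 other genes in the 4 comparisons. With no filter 1 other gene was called with ET-2, and with each array centred on its median 1 with ET-1 and 1 with ET-3. Quantile normalization ended the calls of Nfkb2 with ET-3 (adjusted p = 0.0564) and in the mean (0.0570), and the lack of a filter that with ET-3 (0.0588).

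Over the fits that left out an array or a number, members called ranged from 0 to 4 with ET-1, 0 to 3 with ET-2, 0 to 4 with ET-3 and 2 to 4 in the mean, and other genes from 0 to 8, 0 to 5, 0 to 7 and 2 to 9. Some uncalled changes turned sign in those fits. With ET-1 they ran from -0.047 to 0.63 for Relb, -0.029 to 0.077 for Nfkbia, -0.067 to 0.37 for Tnfaip3, -0.14 to 0.32 for Vcam1 and -0.074 to 0.30 for Chuk. With ET-2 they ran from -0.45 to 0.33 for Relb, -0.20 to 0.041 for Nfkbia, -0.043 to 0.26 for Tnfaip3, -0.18 to 0.27 for Vcam1, -0.086 to 0.34 for Nfkbib, -0.34 to 0.12 for Chuk and -0.056 to 0.22 for Ikbkb. With ET-3 they ran from -0.084 to 0.57 for Relb, -0.0036 to 0.45 for Vcam1, -0.18 to 0.049 for Nfkbib, -0.12 to 0.25 for Chuk and -0.18 to 0.084 for Ikbkb. In the mean they ran from -0.18 to 0.48 for Relb, -0.034 to 0.052 for Nfkbia, -0.078 to 0.33 for Vcam1, -0.0093 to 0.22 for Nfkbib, -0.17 to 0.20 for Chuk and -0.0023 to 0.26 for Ikbkb. For ET-3 over ET-1 they ran from -0.016 to 0.16 for Nfkb1, -0.26 to 0.20 for Rela, -0.13 to 0.080 for Relb, -0.032 to 0.30 for Tnfaip3, -0.069 to 0.11 for Tnfaip2, -0.14 to 0.050 for Icam1 and -0.085 to 0.22 for Vcam1. For ET-3 over ET-2 they ran from -0.18 to 0.27 for Rela and -0.11 to 0.27 for Vcam1. For ET-2 over ET-1 they ran from -0.19 to 0.0057 for Nfkb1, -0.21 to 0.045 for Nfkb2, -0.19 to 0.15 for Rela, -0.22 to 0.019 for Nfkbia, -0.20 to 0.11 for Tnfaip3 and -0.17 to 0.11 for Vcam1. Median centring turned the sign of Nfkbia with ET-1 (-0.0023) and in the mean (-0.041), of Vcam1 with ET-2 (-0.017) and of Chuk in the mean (-0.036), and quantile normalization that of Rela for ET-3 over ET-1 (0.0088).

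Median centring also moved the split of all called probe sets to 150 higher and 33 lower with ET-1, 193 and 1025 with ET-2, 228 and 218 with ET-3, and 426 and 1066 in the mean. Without centring it was 234 and 34, 199 and 50, 331 and 79, and 549 and 209. The cause of these changes was not tested. The 3 dim Tnfaip2 probe sets lie too low for a change to be read.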
